A study of Mus musculus with 11 samples.

Results

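The genes described here are 9 genes of steroid hormone synthesis and Leydig cell function: Star, Cyp11a1, Hsd3b1, Hsd3b6, Cyp17a1, Hsd17b3, Insl3, Lhcgr and Nr5a1. The Leydig cell is the androgen-producing cell of the testis interstitium, and of the 9, Hsd17b3 and Nr5a1 are also known from Sertoli cells and followed the other genes least over these libraries. They were taken by name from the gene column of the deposited count tables, which hold 33188 genes, and all 9 were found and tested in each comparison. The study asked how transposable elements behave in male germ cells that lack DNA methylation at their promoters, with and without the transcription factor NRF1. For that, poly-A RNA of whole testes of mice at postnatal day 5 (P5) was sequenced. Leydig and Sertoli cells are somatic, so these genes read the somatic side of the same libraries.

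All groups share a C57Bl6/J background and the P5 age, and littermate controls were used where the breeding allowed. The wild-type group (WT) holds 2 libraries, and 3 libraries each come from Dnmt3C KO (Dnmt3C KO/KO in all cells), Nrf1 cKO and dKO (both). Nrf1 cKO is written Nrf1KO/KO in the labels and Nrf1cKO/KO in the study. By the study's methods it joins a floxed Nrf1 allele with a KO allele of Nrf1. The floxed allele is removed in germ cells with Ddx4-Cre (Vasa-Cre), a driver of the germ line, so Leydig cells are not the target of the Cre. The KO allele of Nrf1 is carried by Leydig cells as well. The Dnmt3C allele is missing from Leydig cells too. The study calls its libraries biological replicates, the labels do not name the animals, and the p-values measure the spread between these libraries.

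The libraries held between 26063590 and 39365841 counts, with a median of 33862160. Counts over the targeted genes do not check the labelled genotypes. Nrf1 lay between 52.2 and 60.8 CPM (counts scaled to library size with TMM factors) in the 6 libraries with the Nrf1 deletion and between 44.9 and 58.0 in the other 5, and Dnmt3c lay between 3.01 and 4.94 CPM in the 6 libraries with the Dnmt3C deletion and between 3.85 and 4.87 in the other 5. The titles of the libraries say germ cells only, while the study describes whole testes. The labels name germ cells and somatic cells as the source, and somatic genes were abundant. The summed level of 9 Sertoli cell markers ranged from 3960 to 4100 CPM in WT, 4200 to 5480 in Dnmt3C KO, 4670 to 7560 in Nrf1 cKO and 4880 to 5420 in dKO. The summed level of 10 germ cell markers ranged from 277 to 309 CPM in WT, 261 to 485 in Dnmt3C KO, 80.1 to 166 in Nrf1 cKO and 110 to 290 in dKO. In such bulk RNA, fewer Leydig cells and less RNA per Leydig cell cannot be told apart.

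Leydig cells make testosterone from cholesterol. STAR carries cholesterol to the inner mitochondrial membrane, CYP11A1 cuts its side chain, and 3-beta-hydroxysteroid dehydrogenases, CYP17A1 and HSD17B3 complete the route, under the control of luteinizing hormone acting on its receptor LHCGR and of the nuclear receptor NR5A1. In the mouse a fetal Leydig cell population persists after birth until an adult one replaces it; fetal cells make INSL3, the peptide hormone of testis descent, while Hsd3b6 is a gene of the adult population, and the last step of the fetal route is carried out by HSD17B3 in Sertoli cells.

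Promoter windows, which reach from 250 bases before to 50 bases after the start site in RefSeq (GRCm38.p6), were given for 6 of the 9 genes, with 7 windows in all. The windows of Insl3 (chr8:71689002-71689301, + strand), Lhcgr (chr17:88791965-88792264, - strand), Hsd3b1 (chr3:98859745-98860044, - strand) and Hsd3b6 (chr3:98814394-98814693, - strand) are shown, the first for the gene with the smallest p in a pair of genotypes, the next for the hormone receptor, and the last pair for paralogs at very different levels. Capitals mark TCAAGG or its complement CCTTGA, a short string that shares the letters CAAGG with the NR5A1 element CAAGGTCA.
Insl3: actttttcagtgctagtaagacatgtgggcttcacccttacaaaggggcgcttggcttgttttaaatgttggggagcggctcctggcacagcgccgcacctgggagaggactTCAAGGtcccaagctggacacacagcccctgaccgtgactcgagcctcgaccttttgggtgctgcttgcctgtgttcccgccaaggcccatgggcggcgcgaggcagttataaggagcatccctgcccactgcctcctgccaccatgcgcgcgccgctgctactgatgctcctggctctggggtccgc
Lhcgr: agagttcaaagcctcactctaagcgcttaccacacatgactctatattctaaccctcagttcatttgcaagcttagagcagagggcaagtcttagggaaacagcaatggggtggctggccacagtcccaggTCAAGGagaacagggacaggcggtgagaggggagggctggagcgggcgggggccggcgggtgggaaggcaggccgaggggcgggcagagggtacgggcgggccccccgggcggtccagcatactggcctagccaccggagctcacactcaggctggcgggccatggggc
Hsd3b1: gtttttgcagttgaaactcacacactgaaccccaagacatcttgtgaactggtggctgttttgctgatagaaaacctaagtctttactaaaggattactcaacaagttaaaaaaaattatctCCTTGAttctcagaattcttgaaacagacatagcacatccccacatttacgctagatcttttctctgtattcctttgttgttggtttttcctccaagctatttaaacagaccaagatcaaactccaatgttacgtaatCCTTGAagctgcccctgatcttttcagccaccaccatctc
Hsd3b6: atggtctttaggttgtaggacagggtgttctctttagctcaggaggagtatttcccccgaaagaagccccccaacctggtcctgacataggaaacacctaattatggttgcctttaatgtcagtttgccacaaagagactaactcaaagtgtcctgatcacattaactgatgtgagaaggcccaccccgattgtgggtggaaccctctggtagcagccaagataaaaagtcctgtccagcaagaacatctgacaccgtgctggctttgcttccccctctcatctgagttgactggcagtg

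The 8-letter NR5A1 element CAAGGTCA was in none of the 7 windows on either strand, and in 1.56% of 32817 mouse windows. The NRF1 element GCATGCGC was in none of the 7 either, and in 2.71% of all windows. The shorter string TCAAGG was chosen after the longer NR5A1 element had been searched and holds only part of it. It was in 4 of the 7 windows, those of Insl3, Lhcgr, Hsd3b1 and 1 of the 2 windows of Cyp11a1, and in 14.4% of all windows. It began at -138 from the start site (counted as 0) in Insl3, and at -119 in Lhcgr, the Hsd3b1 window holds 2 copies, and the Hsd3b6 window has none. The Insl3 and Lhcgr windows held 16 and 14 CG pairs, against 2 in Hsd3b1, 3 in Hsd3b6 and a median of 7 over all windows. A match gives letters in a window and not a bound site, and these data hold no measurement of binding or methylation in Leydig cells.

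Per kilobase of annotated exon, the 9 genes spanned a wide range of levels. Hsd3b1 was highest, at a median of 326 CPM per kb over the 11 libraries, followed by Hsd17b3 at 203, Insl3 at 98.4, Cyp17a1 at 91.0, Nr5a1 at 70.9, Cyp11a1 at 50.9, Star at 31.5, Lhcgr at 3.23 and Hsd3b6 at 0.796. Hsd3b1 overlapped Hsd17b3 over the libraries, and from Insl3 down to Star each neighbour in this order overlapped the next. Every library of Hsd17b3 (149 to 229 CPM per kb) lay above every library of Insl3 (50.4 to 138 CPM per kb). Lhcgr, between 2.15 and 5.14 CPM per kb, lay below every library of Star, whose lowest was 11. Hsd3b6, at most 1.11 CPM per kb, lay below every library of Lhcgr. Lhcgr has 7645 annotated exon bases, Cyp11a1 4804 and Insl3 623, summed over all annotated transcripts, and a gene whose long exons are little used has too low a value per kb.

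Across libraries, the genes did not move as 1 block. The standard deviation between libraries of a genotype was largest for Star (0.76 on the log2 scale, a factor of 1.70), Cyp17a1 (0.65) and Hsd3b6 (0.59), and smallest for Nr5a1 (0.18) and Hsd17b3 (0.20). Over the 11 libraries, the log2 CPM of Cyp11a1 and Hsd3b1 had a Pearson r of 0.923, and the correlation of each gene with the mean of the 8 others was 0.844 for Cyp11a1, 0.843 for Hsd3b1, 0.811 for Cyp17a1 and 0.770 for Insl3. It was 0.580 for Star, 0.553 for Hsd3b6 and 0.414 for Lhcgr. Hsd17b3 at -0.341 and Nr5a1 at -0.191 ran the other way. These are descriptions over 11 libraries that share a scaling. With the mean of the Sertoli cell markers the r was 0.499 for Nr5a1 and 0.360 for Hsd17b3, and between -0.755 (Cyp17a1) and -0.314 (Insl3) for the 7 others. With the mean of the interstitial markers it was 0.867 for Star, 0.821 for Cyp17a1, 0.684 for Cyp11a1, between 0.300 and 0.566 for Hsd3b1, Hsd3b6, Insl3 and Lhcgr, -0.142 for Nr5a1 and -0.414 for Hsd17b3. With the mean of the germ cell markers it was -0.674 for Nr5a1 and between -0.232 and 0.198 for the 8 others.

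Single libraries held many of the extremes. Nrf1 cKO replicate 3 was the lowest of the 11 for 3 genes (Star, Cyp11a1 and Cyp17a1) and the highest for Hsd17b3, and dKO replicate 2 was the lowest for Hsd3b1 and Lhcgr. Averaged over the 9 genes, these libraries lay 0.41 and 0.50 below the mean of all libraries on the log2 scale, and WT replicate 1 lay 0.35 below it. In Nrf1 cKO replicate 3 the Sertoli markers Sox9, at 194 CPM, and Cldn11, at 157 CPM, were the highest of the 11 libraries, where the other 10 had 44.9 to 115 and 16.4 to 66.9 CPM. Its mean log2 CPM over the Sertoli cell list was 8.69, against at most 8.12 elsewhere, and over the interstitial list 7.28, the lowest. The part of tissue composition in the values of these libraries was not tested.

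**Figure D1:**
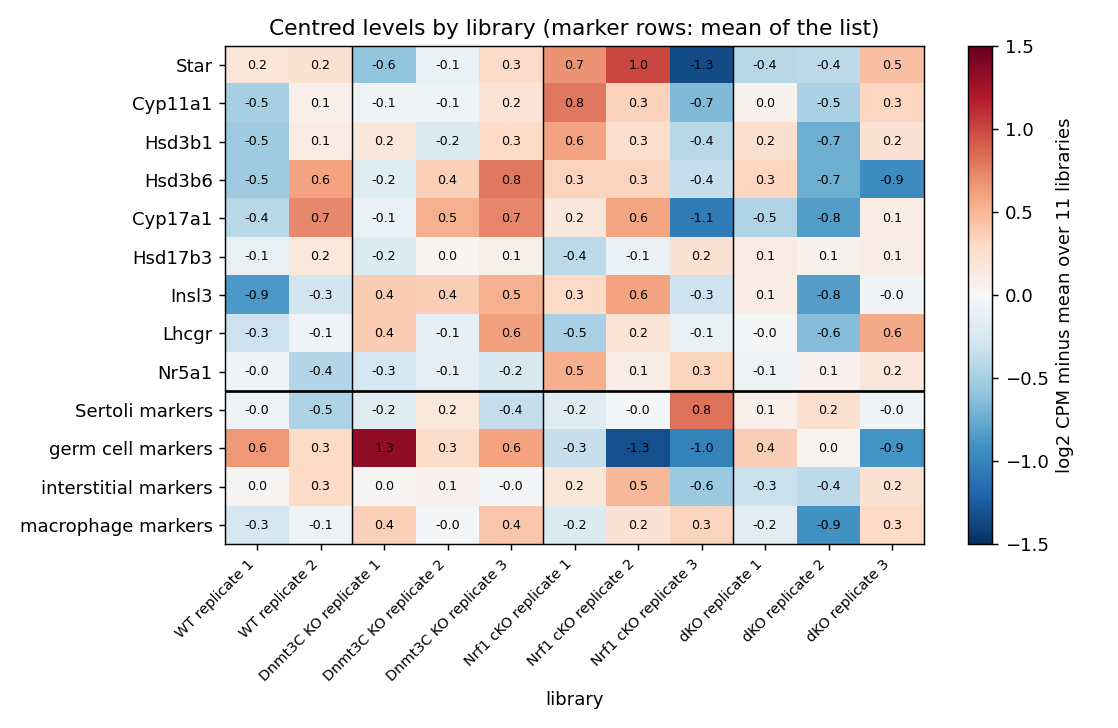
Log2 CPM of each gene minus its mean over the 11 libraries (colour and printed value), with the mean of 4 marker lists below the line. WT replicate 1, Nrf1 cKO replicate 3 and dKO replicate 2 are low for most steroid genes, and Nrf1 cKO replicate 3 is high for Sertoli cell markers.

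The first steps of the pathway showed no separation of the genotypes. Star, on chromosome 8 (25806555 to 25815982, + strand, GRCm38), had 130 and 134 CPM in the pair of WT libraries, 75.5, 107 and 140 in those of Dnmt3C KO, 182, 229 and 45.3 in those of Nrf1 cKO and 85.7, 87.2 and 156 in those of dKO. The Nrf1 cKO libraries alone covered the whole range, and every pair of genotypes overlapped. Its log2 fold change was -0.29 (standard error 0.22) in Dnmt3C KO over WT and 0.20 (0.50) in Nrf1 cKO over WT, and -0.27 (0.26) in dKO over WT.

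Cyp11a1, on chromosome 9 (58006411 to 58027023, + strand), which encodes the side-chain cleavage enzyme that commits cholesterol to steroids, had 166 and 249 CPM in the pair of WT libraries, 228, 223 and 271 in those of Dnmt3C KO, 407, 298 and 149 in those of Nrf1 cKO and 244, 168 and 294 in those of dKO. The highest and the lowest library were both Nrf1 cKO. Its log2 fold change over WT was 0.21 (standard error 0.20) in Dnmt3C KO, 0.46 (0.36) in Nrf1 cKO and 0.18 (0.26) in dKO. The value for Nrf1 cKO ran from 0.10 without Nrf1 cKO replicate 1 to 0.77 without WT replicate 2.

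The paralogs Hsd3b1 and Hsd3b6, which lie in 1 cluster on the - strand of chromosome 3 (98852194 to 98859794 and 98805504 to 98814443), convert pregnenolone-type into progesterone-type steroids. Hsd3b1 had 371 and 588 CPM in the pair of WT libraries, 605, 464 and 662 in those of Dnmt3C KO, 823, 649 and 404 in those of Nrf1 cKO and 634, 324 and 625 in those of dKO. Hsd3b6 had 0.782 and 1.74 CPM in the pair of WT libraries, 1.00, 1.47 and 2.00 in those of Dnmt3C KO, 1.46, 1.44 and 0.890 in those of Nrf1 cKO and 1.43, 0.679 and 0.580 in those of dKO. Both overlapped between every pair of genotypes. Per kb of exon, Hsd3b1 was 306 to 1046 times as high as Hsd3b6 within a library, with a median of 440. Hsd3b6 rests on 19 to 63 counts a library. Of its 50-base transcript windows, 2.11% also occur in Hsd3b1, 13.2% in Hsd3b2 and 12.2% in Hsd3b3, and of its 100-base windows 0.0%, 2.67% and 3.11%. The share of its reads that came from its copies was not tested.

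Cyp17a1, on chromosome 19 (46667165 to 46673172, - strand), encodes the 17-alpha-hydroxylase and lyase of androgen synthesis. It had 175 and 382 CPM in the pair of WT libraries, 217, 337 and 389 in those of Dnmt3C KO, 261, 351 and 112 in those of Nrf1 cKO and 171, 131 and 252 in those of dKO. The highest dKO library lay above the lowest library of each other genotype. In dKO over Dnmt3C KO its mean was 184 ± 61.8 CPM against 314 ± 88.4 (SD, n = 3 each), or -0.77 on the log2 scale (standard error 0.26, adjusted p = 0.675; edgeR). Over WT its log2 fold change in dKO was -0.60 (0.34), which became 0.08 without WT replicate 2.

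Hsd17b3, on chromosome 13 (64058266 to 64089230, - strand), makes testosterone from androstenedione. It had 253 and 304 CPM in the pair of WT libraries, 236, 278 and 287 in those of Dnmt3C KO, 208, 255 and 319 in those of Nrf1 cKO and 296, 282 and 295 in those of dKO. No library was more than 1.54 times another, the narrowest range of the 9, and each log2 fold change lay between -0.10 and 0.16 over the 5 pairs.

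**Figure D2:**
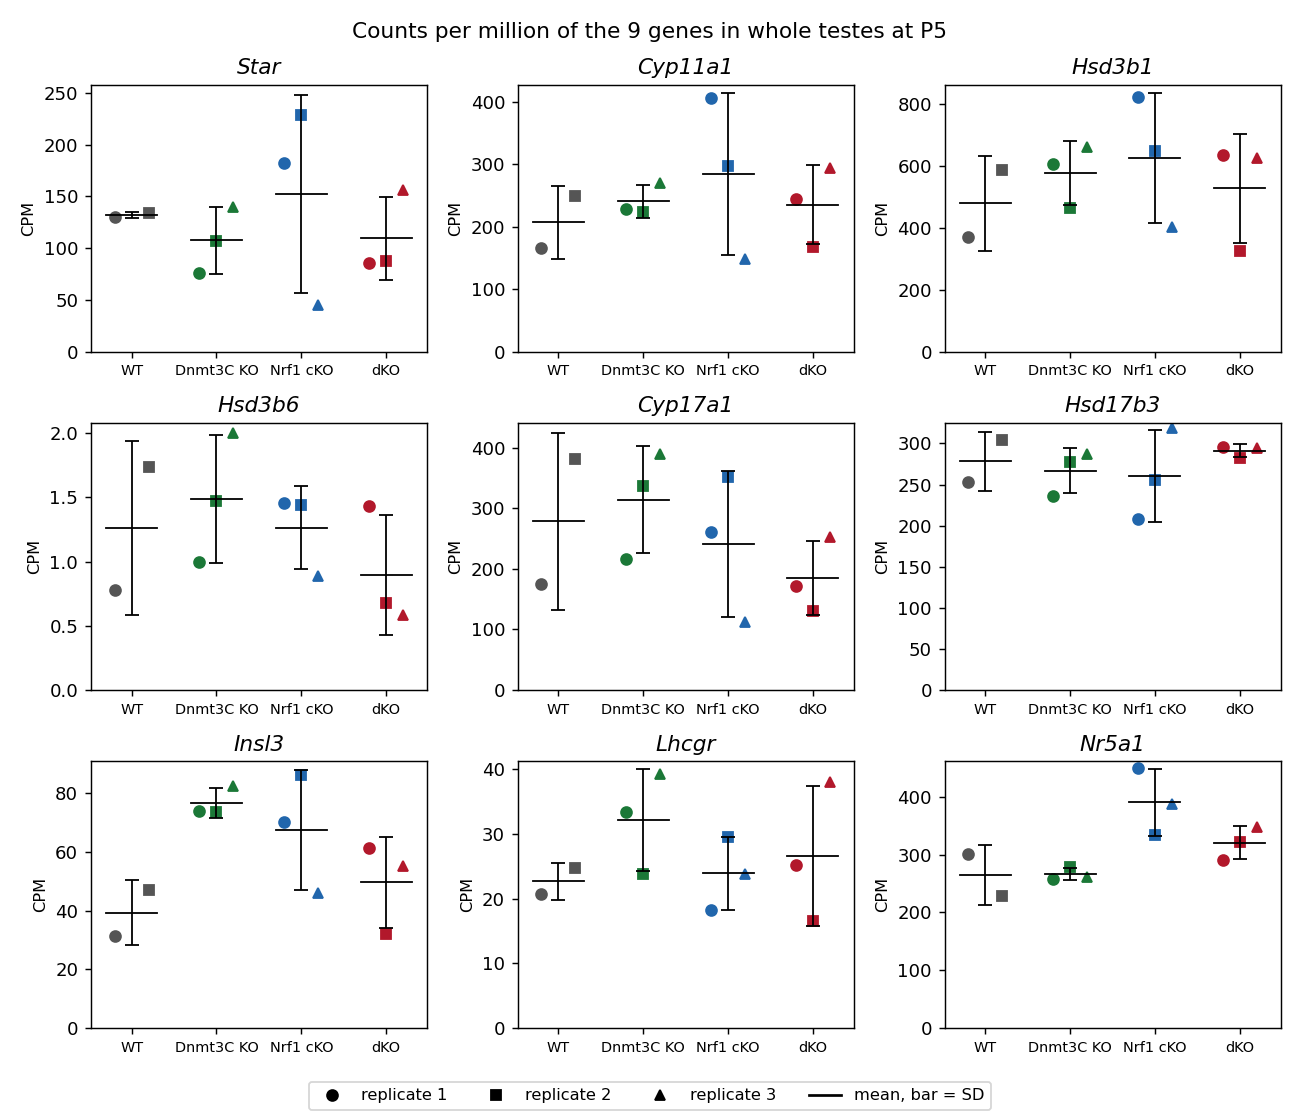
CPM (linear axis from 0) of the 9 genes in each of the 11 libraries, by genotype, with the marker shape giving the replicate number, the horizontal line the mean and the bar the SD. Insl3 is the gene whose 3 Dnmt3C KO libraries (73.5 to 82.4 CPM) lie furthest from both WT libraries (31.4 and 47.0 CPM).

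Insl3 had the smallest p of the 9 genes in a pair of genotypes. It lies on chromosome 8 (71689214 to 71690575, + strand) and had 31.4 and 47.0 CPM in the pair of WT libraries, 73.9, 73.5 and 82.4 in those of Dnmt3C KO, 70.1, 86.2 and 45.8 in those of Nrf1 cKO and 61.3, 32.1 and 55.3 in those of dKO. The lowest Dnmt3C KO library exceeded the highest of WT and of dKO, while Nrf1 cKO and dKO each had a library inside the WT range. The mean was 76.6 ± 5.01 CPM (SD, n = 3) in Dnmt3C KO against 39.2 ± 11 (SD, n = 2) in WT, which is 0.97 on the log2 scale with a standard error of 0.18. With p-values adjusted over 21664 features this had an adjusted p of 0.302 in edgeR and was not called at 0.01.

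The call depended on the method. The DESeq2 Wald test gave Insl3 an adjusted p of 0.000753 in Dnmt3C KO over WT, 1 of 25 features called (0.1% of 24895), and edgeR without a filter on low counts gave 7.49e-06, 1 of 158 called (0.475%). With the replicate number as a block, 131 features were called (0.605%), and in Nrf1 cKO over WT 87 (0.409%), Insl3 among them both times. WT has no replicate 3, so under the block replicate 3 of the mutant does not inform the difference from WT. Without Dnmt3C KO replicate 3 and with no block, edgeR gave Insl3 an adjusted p of 0.13 in Dnmt3C KO over WT. Over all alternatives its adjusted p ran from 7.49e-06 to 0.999, and leaving out 1 library at a time moved the log2 fold change between 0.71 and 1.30.

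In Nrf1 cKO over WT the log2 fold change of Insl3 was 0.78 (standard error 0.27, adjusted p = 0.833), and in dKO over WT 0.34 (0.28, adjusted p = 1.00; edgeR). The latter ran from 0.07 without WT replicate 1 to 0.66 without WT replicate 2, and the former from 0.54 to 1.1 without the same libraries. In dKO over Dnmt3C KO it was -0.63 (0.21, adjusted p = 0.675; edgeR), with the 3 dKO libraries below the 3 Dnmt3C KO libraries. The interaction, which asks whether the Dnmt3C deletion acts alike with and without the Nrf1 deletion, was -1.41 on the log2 scale (standard error 0.38, adjusted p = 0.895; edgeR, 11 libraries).

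Blood cell markers were read in the same comparison, and edgeR called 0 of them. In Dnmt3C KO over WT, 3 of 7 macrophage markers had higher values and 5 of 5 red blood cell markers lower values at an unadjusted p under 0.05, which 5.41% of all features passed. Their summed levels were 139 to 195 CPM in Dnmt3C KO against 123 to 135 in WT for macrophages, and 545 to 789 against 659 to 2120 for red blood cells, which overlap. The mean log2 CPM of the red cell list was 6.50 in WT replicate 1, inside the Dnmt3C KO range of 6.15 to 6.73, and 8.22 in WT replicate 2. No macrophage or red cell marker was under 0.5 CPM in every library, and their part in the level of Insl3 was not tested.

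The count of Insl3 has an uncertainty of its own. Of its 623 exon bases, 404 (64.8%) also belong to exons of Jak3, a kinase gene of blood cells on the same strand, and only 219 are outside them. The count of Jak3 was 0.889 to 1.05 times that of Insl3 in every library, with a median of 0.946, and the log2 CPM of the pair had a Pearson r of 0.993 over the 11 libraries. Jak3 had 38.0 ± 9.16 CPM in WT (SD, n = 2) and 71.2 ± 4.62 in Dnmt3C KO (SD, n = 3), or 0.91 higher on the log2 scale (standard error 0.17, adjusted p = 0.302; edgeR). From counts of whole genes, reads of Insl3 and Jak3 in the shared exons cannot be told apart, and the levels of Insl3 are those of the locus as counted.

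Set against the mean log2 CPM of the 8 other genes in the same library, Insl3 was lowest in the WT libraries, at -1.36 and -1.24. It was -0.30, -0.45 and -0.60 in the Dnmt3C KO libraries, -0.76, -0.53 and -0.68 in those of Nrf1 cKO and -0.65, -1.15 and -0.95 in those of dKO. Both WT libraries were below all 9 mutant libraries on this scale. This scale was chosen after the values were seen, so it carries no test.

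**Figure D3:**
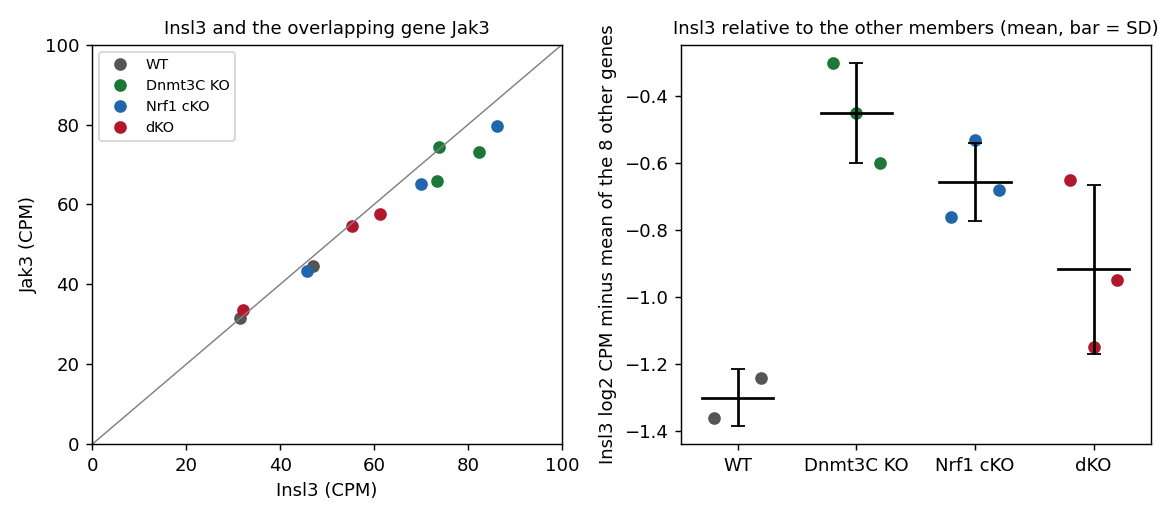
Left, CPM of Jak3 against CPM of Insl3 in the 11 libraries, with the line of equal values, near which all points lie. Right, log2 CPM of Insl3 minus the mean of the 8 other genes in each library, with mean and SD; WT, at -1.36 and -1.24, lies below every mutant library.

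Ren1, which encodes renin and was listed as a marker of fetal Leydig cells, had 50.9 and 65.0 CPM in the pair of WT libraries, 135, 124 and 108 in those of Dnmt3C KO, 76.4, 134 and 79.5 in those of Nrf1 cKO and 99.9, 55.6 and 109 in those of dKO. The lowest Dnmt3C KO library exceeded the highest of WT (1.08 on the log2 scale, standard error 0.17, adjusted p = 0.205; edgeR), and it was picked out of its list after its values were seen. In Nrf1 cKO over WT Ren1 was 0.73 higher on the log2 scale (standard error 0.26, adjusted p = 0.833; edgeR), again with no overlap, and in dKO the libraries overlapped WT. The median log2 fold change over WT of the 4 fetal markers was 0.00 in Dnmt3C KO, 0.72 in Nrf1 cKO and 0.49 in dKO, against 0.01, 0.00 and 0.01 for all features. Thbs2 lay between 123 and 236 CPM over the 11 libraries, Crhr1 between 1.43 and 9.38 and Mc2r between 0.124 and 0.886. Among the 6 adult Leydig cell markers, Sult1e1 was at most 0.216 CPM, Hsd11b1 between 0.759 and 2.17 and Hsd3b6 at most 2.00, whereas Ptgds, Vcam1 and Hsd17b3, which other testis cells also express, were higher.

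Lhcgr, on chromosome 17 (88716481 to 88791990, - strand), the receptor for luteinizing hormone, had 20.7 and 24.7 CPM in the pair of WT libraries, 33.5, 23.8 and 39.3 in those of Dnmt3C KO, 18.3, 29.6 and 23.9 in those of Nrf1 cKO and 25.3, 16.5 and 38.1 in those of dKO. The Dnmt3C KO libraries overlapped WT through replicate 2. The log2 fold change in that comparison was 0.50 (standard error 0.21, adjusted p = 0.893; edgeR), and in the other pairs it lay between -0.28 and 0.23.

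Nr5a1, on chromosome 2 (38692656 to 38714542, - strand), the transcription factor of steroid-making cells that Sertoli cells also express, is described last of the 9. It had 301 and 228 CPM in the pair of WT libraries, 258, 279 and 262 in those of Dnmt3C KO, 449, 333 and 388 in those of Nrf1 cKO and 291, 322 and 348 in those of dKO. All Nrf1 cKO libraries lay above WT, and all dKO libraries lay above Dnmt3C KO, while dKO and WT overlapped. On the log2 scale the difference was 0.55 (standard error 0.23, adjusted p = 0.852) in Nrf1 cKO over WT and 0.27 (0.11, adjusted p = 0.675) in dKO over Dnmt3C KO (edgeR). Over the 4 genotypes together it had the smallest adjusted p of the 9 genes, 0.606 (edgeR). In Nrf1 cKO over WT, 8 of 10 germ cell markers had lower values at an unadjusted p under 0.05, which 5.75% of all features passed, and edgeR called 0 of the 10 (smallest adjusted p = 0.395). Their median log2 fold change was -1.31, and that of the 9 Sertoli cell markers was 0.52. In dKO over Dnmt3C KO these medians were -0.89 and 0.25. The part of that in the level of Nr5a1 was not tested.

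Over the 7 comparisons (5 pairs, the 4 genotypes together and the interaction), edgeR called 0 of the 9 genes at an adjusted p under 0.01, where it called 0.0% of all features tested. With no feature called at all, this count does not show that the 9 genes were alike between genotypes. DESeq2 called 1 of the 9, Insl3, in Dnmt3C KO over WT, where it called 0.1% of all features, and 0 in the other 6. There it called 0.108% of all features in Nrf1 cKO over WT, 0.012% in dKO over WT, 0.0241% in dKO over Nrf1 cKO, 0.0704% in dKO over Dnmt3C KO, 0.531% over the 4 genotypes together and 0.0% in the interaction. At an unadjusted p under 0.05 there were 2 of 9 genes in Dnmt3C KO over WT (Insl3 and Lhcgr), where 5.41% of all features passed, and 2 in Nrf1 cKO over WT (Insl3 and Nr5a1), where 5.75% passed. There were 0 in dKO over WT (1.74% of all features), 0 in dKO over Nrf1 cKO (2.81%) and 3 in dKO over Dnmt3C KO (Cyp17a1, Insl3 and Nr5a1; 7.18%). Over the 4 genotypes together there were 2 (Insl3 and Nr5a1; 6.06%), and in the interaction 1 (Insl3; 5.55%).

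The genotypes did not overlap for 1 of 9 genes in Dnmt3C KO over WT (Insl3), against 21.3% of all features. The same count was 1 in Nrf1 cKO over WT (Nr5a1; 21.3%), 0 in dKO over WT (13.1%), 0 in dKO over Nrf1 cKO (7.43%) and 2 in dKO over Dnmt3C KO (Insl3 and Nr5a1; 13.6%). The median log2 fold change of the 9 genes was 0.21 in Dnmt3C KO over WT, 0.20 in Nrf1 cKO over WT, 0.14 in dKO over WT, -0.28 in dKO over Nrf1 cKO and -0.13 in dKO over Dnmt3C KO, where the median of all features lay between -0.01 and 0.02. These comparisons share libraries.

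**Figure D4:**
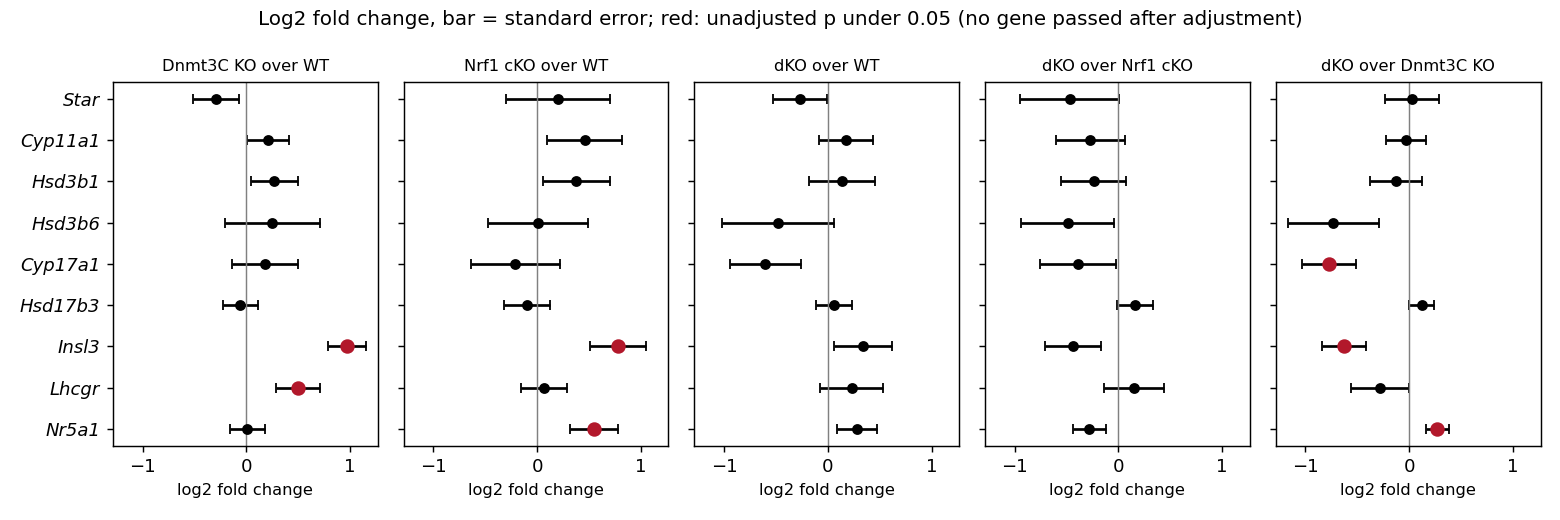
Log2 fold change (horizontal axis) of the 9 genes with its standard error in the 5 pairs of genotypes; red points have an unadjusted p under 0.05. Insl3 is at 0.97 in Dnmt3C KO over WT and at -0.63 in dKO over Dnmt3C KO.

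The rest of the steroid route was read from 4 lists of related genes, and edgeR called 0 of their 56 tested genes in each comparison, where it called 0.0% of all features. DESeq2 also called 0 of them, with at most 0.531% of all features called in a comparison. At an unadjusted p under 0.05 over the 4 genotypes, which 6.06% of all features passed, each list had 1 gene, so none of these counts is a result about its list. Among 12 genes of cholesterol supply and electron transfer, that gene was Fdxr, the reductase that feeds electrons to CYP11A1, with 206 ± 13.4 CPM in WT (SD, n = 2), 207 ± 44.2 in Dnmt3C KO, 283 ± 9.24 in Nrf1 cKO and 262 ± 31.8 in dKO (SD, n = 3 each). In Nrf1 cKO over WT it was 0.45 higher on the log2 scale (standard error 0.18, adjusted p = 0.852; edgeR), with all 3 libraries above both WT libraries. Soat1, which esterifies cholesterol for storage, had 83.5 ± 4.88 CPM in WT (SD, n = 2) and 70.8 ± 1.15 in Dnmt3C KO (SD, n = 3). Cyb5a, the cytochrome that aids the CYP17A1 lyase step, and Lipe, the hormone-sensitive lipase, had an adjusted p of 0.929 and 0.944 over the 4 genotypes (edgeR).

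Among 11 other steroid-converting enzymes tested, 1 had passed against 6.06% of all features. Cyp21a1, the 21-hydroxylase known for its role in the adrenal cortex, had 2.08 and 2.58 CPM in the pair of WT libraries, 9.96, 4.29 and 4.92 in those of Dnmt3C KO, 4.49, 6.17 and 3.06 in those of Nrf1 cKO and 4.47, 4.29 and 4.19 in those of dKO. Both WT libraries were lowest. Its log2 fold change over WT was 1.45 (standard error 0.38, adjusted p = 0.722) in Dnmt3C KO, 0.97 (0.38, adjusted p = 0.847) in Nrf1 cKO and 0.89 (0.29, adjusted p = 1.00) in dKO (edgeR). In Dnmt3C KO over WT edgeR called it with no filter on low counts (adjusted p = 0.00147), where 0.475% of all features were called, and with the replicate number as a block (adjusted p = 0.00186), where 0.605% were. The adrenal enzymes Cyp11b1 and Cyp11b2 lay between 1.08 and 4.63 and at most at 0.154 CPM. Hsd17b7, which acts in cholesterol synthesis and on estrone, had a log2 fold change of -0.60 (0.22) in Nrf1 cKO over WT, and Srd5a1, a 5-alpha-reductase, 0.58 (0.25). Hsd17b1, the estrogen-forming paralog, had 151 ± 5.25 CPM in WT (SD, n = 2), 126 ± 60.0 in Dnmt3C KO, 195 ± 14.5 in Nrf1 cKO and 204 ± 40.4 in dKO (SD, n = 3 each). Cyp19a1, the aromatase, Cyp11b2 and Sult1e1 were under 0.5 CPM in every library.

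Among 19 genes of cholesterol synthesis, 1 had passed against 6.06% of all features. Insig1, a sterol-sensing brake on the pathway, had 75.2 ± 21.5 CPM in WT (SD, n = 2), 65.9 ± 5.57 in Dnmt3C KO, 50.5 ± 5.81 in Nrf1 cKO and 54.7 ± 2.57 in dKO (SD, n = 3 each), with a log2 fold change of -0.58 (0.20, adjusted p = 0.833; edgeR) in Nrf1 cKO over WT. Its WT libraries were far apart, at 60.0 and 90.4 CPM. All Nrf1 cKO libraries (47.1 to 57.2 CPM) and all dKO libraries (51.8 to 56.9 CPM) lay below both. The genotypes did not overlap for 21.3% of all features in Nrf1 cKO over WT and for 13.1% in dKO over WT. The median of the list was -0.24 in that comparison and -0.23 in dKO over WT, against 0.00 and 0.01 for all features. The mean log2 CPM of the list was 6.13 in WT replicate 2. It was 5.73 in WT replicate 1, inside the ranges of 5.70 to 5.82 in Nrf1 cKO and 5.66 to 5.86 in dKO. The part of WT replicate 2 in this shift was not tested. Idi1, Mvd and Sc5d, enzymes of the same route, were each highest in WT replicate 2, at 59.6, 24.6 and 41.1 CPM.

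Among 14 regulators, signals and hormone receptors tested, 1 had passed against 6.06% of all features. Nr4a1, an immediate early gene induced by luteinizing hormone, had 64.3 and 28.8 CPM in the pair of WT libraries, 40.2, 36.2 and 35.2 in those of Dnmt3C KO, 46.0, 103 and 63.7 in those of Nrf1 cKO and 45.8, 60.2 and 42.9 in those of dKO. In dKO over Dnmt3C KO 4 of the 14 passed the same unadjusted limit, against 7.18% of all features, with higher values in dKO, namely Nr4a1 (0.41, standard error 0.14), Gata4 (0.38, 0.16), Gata6 (0.49, 0.21) and Dhh (0.36, 0.16) on the log2 scale, each with an adjusted p of 0.675 (edgeR). GATA4, GATA6 and the signal DHH are also products of Sertoli cells. In the same comparison 5 of 10 germ cell markers had lower values at that limit, with a median log2 fold change of -0.89 and 0 called by edgeR, and the median of the 9 Sertoli cell markers was 0.25. The part of these in the 4 genes was not tested. Nr0b1, a repressor that binds NR5A1 and that was named after its values were seen, was 0.53 (standard error 0.19) above WT in Dnmt3C KO and 0.89 (0.32) in Nrf1 cKO on the log2 scale, with adjusted p-values of 0.891 and 0.833 (edgeR). In dKO it was 0.34 (0.30) above WT. In Dnmt3C KO over WT 1 of the 14 was higher at the unadjusted limit and 1 lower, against 5.41% of all features. The lower one was Igf1, at -0.48 (0.17, adjusted p = 0.893; edgeR). Rxfp2, the INSL3 receptor, was under 0.5 CPM in every library.

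Outside these lists, the 5 genes whose log2 CPM was most like the mean standardised level of the 9 genes over the 11 libraries, among 15865 genes with a mean of at least 1 CPM, were Adh1 (Pearson r 0.930), Snx2 (0.922), Emp3 (0.922), Arl6ip5 (0.920) and Hikeshi (0.919). Adh1, an alcohol dehydrogenase, ranged from 100 to 191 CPM, and Hikeshi from 21.4 to 30.8 CPM.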

How the data were processed

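Poly-A RNA of whole testes was sequenced with a stranded kit, and each library took the genotype its label gives. The authors left out libraries of low RNA integrity, aligned the reads to GRCm38 with STAR 2.7.3a, counted them on genes and transposable element subfamilies with TEtranscripts in its multi-mapping, reverse-stranded mode, and deposited raw counts in 1 table for each pair of genotypes. Those tables also hold the authors' own fold changes and p-values, which were not used. The TPM table covers transposable element copies and was not used here. A library had the same counts in each table that held it, which allowed a join of 33188 genes with 1088 subfamilies.

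CPM used TMM factors over the 11 libraries and 1 prior count before logs. The main test was edgeR 4.0.16 in R 4.3.3 (filterByExpr, TMM, quasi-likelihood F test) on the libraries compared, with Benjamini-Hochberg adjustment over all genes and subfamilies and a threshold of 0.01. Standard errors are the log2 fold change over the root of F. DESeq2 1.42.0 was an alternative, and both were tested on simulated data. The alternatives were DESeq2 size factors, no filter, a threshold of 0.05, a block for the replicate number, libraries left out in turn, sizes or fits from genes alone, and all 4 genotypes in one fit. Positions and exon lengths come from GENCODE M21 on GRCm38, while the authors used a later release.

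Libraries of the same genotype were further apart than counting noise, with a chi-square per degree of freedom between 19.48 and 69.21, so none was counted as a duplicate. The depth sets counting error only. The 9 genes and all lists were chosen with earlier results of these data known. All 9 genes are named, and of each related list up to 4 genes with the smallest p over the 4 genotypes. Single genes named beyond that were chosen after their values were seen.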

Additional observations from a re-analysis of the deposited data

Results flagged for a closer look

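The difference between the effects of the Dnmt3C deletion with and without the Nrf1 deletion stood out for Insl3 by its unadjusted p, which was under 0.05. The interaction was -1.41 on the log2 scale (standard error 0.38), with an adjusted p of 0.895 (edgeR, 11 libraries), so it did not pass the threshold. It is composed of a log2 fold change of 0.97 in Dnmt3C KO over WT and of -0.44 in dKO over Nrf1 cKO. Leaving out 1 library at a time kept it between -1.75 and -1.16. The counts of Insl3 and Jak3 share exons, as given above. In the interaction 2 of 7 macrophage markers had lower values at an unadjusted p under 0.05, against 5.55% of all features, and edgeR called 0. Their median was -0.77 on the log2 scale, against -0.01 for all features. Of 5 red blood cell markers 0 passed that limit. The part of blood cells in the interaction of Insl3 was not tested. No genotype has the 4 libraries that a check for outlying libraries needs.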

How the results depend on the processing

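No setting other than those named here moved a count of the 9 genes called, which was 0 of 9 in each comparison. It was 1 (Insl3) in Dnmt3C KO over WT with no filter on low counts, with the DESeq2 Wald test and with the replicate block, and 1 (Insl3) in Nrf1 cKO over WT with the replicate block. Of the 56 related pathway genes, 1 (Cyp21a1) was called in Dnmt3C KO over WT with no filter and with the replicate block, and 0 under the other settings and in the other comparisons. Whether the replicate numbers pair littermates is not known. Deviations of same-numbered libraries had a correlation between -0.233 and 0.221. Each deviation is from the mean of the few libraries of a genotype, so these values cannot show whether the libraries are paired. Dnmt3C KO replicate 3 and dKO replicate 3 carry other replicate numbers in the deposited column names. The replicate block raised the calls over all features in Dnmt3C KO over WT from 0 to 131 (0.605%), with an adjusted p of 0.000857 for Insl3, and in Nrf1 cKO over WT from 0 to 87 (0.409%), with 0.000999. It turned Cyp17a1 to 0.22 in Nrf1 cKO over WT, and Cyp11a1 to -0.01, Hsd3b1 to -0.04 and Lhcgr to -0.15 in dKO over WT. Hsd3b6 in Nrf1 cKO over WT, at 0.01, became -0.0013 with library sizes of genes only and -0.0016 with genes only in the fit. The causes were not tested. Leaving out 1 library at a time turned the sign of the log2 fold change for 24 of 54 values, none of them called. Values that kept their sign moved too, as for Hsd3b1 in Nrf1 cKO over WT (0.11 to 0.75). The ranges of those that turned were, in Dnmt3C KO over WT, Cyp11a1 (-0.04 to 0.55), Hsd3b1 (-0.02 to 0.65), Hsd3b6 (-0.22 to 0.94), Cyp17a1 (-0.27 to 0.86), Hsd17b3 (-0.18 to 0.10) and Nr5a1 (-0.16 to 0.23). In Nrf1 cKO over WT they were Star (-0.22 to 0.63), Hsd3b6 (-0.44 to 0.69), Cyp17a1 (-0.65 to 0.46), Hsd17b3 (-0.27 to 0.04) and Lhcgr (-0.11 to 0.23). In dKO over WT they were Cyp11a1 (-0.09 to 0.50), Hsd3b1 (-0.16 to 0.51), Hsd3b6 (-1.01 to 0.20), Cyp17a1 (-1.06 to 0.08), Hsd17b3 (-0.07 to 0.21) and Lhcgr (-0.12 to 0.48). In dKO over Nrf1 cKO they were Cyp11a1 (-0.58 to 0.07), Hsd3b1 (-0.48 to 0.02) and Lhcgr (-0.19 to 0.42). In dKO over Dnmt3C KO they were Star (-0.31 to 0.26), Cyp11a1 (-0.22 to 0.15) and Hsd3b1 (-0.30 to 0.11). In the interaction they were Star (-0.63 to 0.24).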
